A study of Homo sapiens with 12 samples.

Results

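CARM1 is known to work at promoters and enhancers together with other coactivators, and 10 genes for these partners and for known CARM1 substrates were followed here across all 12 RNA-seq libraries of the series. The genes were listed by name from what is known of CARM1, at a time when earlier results of these data were known. Each was found by matching the Ensembl identifiers of the deposited counts to gene symbols. They are the p160 coactivators NCOA1, NCOA2 and NCOA3, the acetyltransferases EP300 and CREBBP, the chromatin and transcription factors SMARCC1, MED12 and KMT2D, the RNA-binding protein PABPC1, and CCAR1. All 10 of the 10 were found, and all of them were among the 12830 coding genes tested. By their labels the libraries came from HEK293T, a cell line made from human embryonic kidney cells that carries the SV40 large T antigen. The text of the study names HEK293 cells for its RNA-seq. The libraries fall into 6 groups of 2 libraries. siCTL cells received a control siRNA. siCARM1 cells received siRNA against CARM1, and in siCHD4, siHDAC2, siGATAD2A and siKDM1A the siRNA was directed against the gene in the name. The cells were otherwise untreated and grown in the same serum-containing medium, and no time after transfection is given in the labels. CHD4, HDAC2, GATAD2A and KDM1A are subunits of NuRD, a complex that joins nucleosome remodelling and histone deacetylation. Knockdown of a transcript in a transfected cell line is partial and its effect on protein was not part of these data. Nothing in the labels says whether the libraries of a group came from separate cultures, so p-values measure only the spread between these libraries, which may be technical.

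CARM1 is an arginine methyltransferase. A nuclear receptor bound to its ligand recruits a p160 coactivator, and the p160 protein in turn brings in the acetyltransferases p300 (EP300) or CBP (CREBBP) and CARM1, which then modify histones and each other. CARM1 is also known to methylate proteins outside histones, among them p300, CBP, NCOA3, the SWI/SNF subunit BAF155 (SMARCC1), the Mediator subunit MED12, the H3K4 methyltransferase KMT2D and the poly(A)-binding protein PABP1 (PABPC1). CCAR1 is a coactivator that links p160 complexes to Mediator. The comparisons below ask whether the RNA of these partners and substrates changed when CARM1 or a NuRD subunit was knocked down. RNA level says nothing of methylation, which was not measured in these libraries.

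The libraries held between 19308315 and 28648657 read pairs on the sequenced strand of genes. The targeted transcript was lower than siCTL in both libraries of each knockdown, by 2.37 on the log2 scale for CARM1 in siCARM1, and the log2 fold changes of HDAC2, GATAD2A and KDM1A in their own knockdowns were -2.35, -1.74 and -2.59. CHD4 in siCHD4 fell by 0.54 on the same scale, from 39.6 to 27.3 CPM, the smallest fall of a target. GATAD2A, the target of another siRNA, was called higher in siCHD4, by 1.09 (369 CPM beside 174 in siCTL). siCHD4 and siGATAD2A therefore differed in the direction of GATAD2A, and its part in their results was not tested. CPM here is the count of a gene scaled to the total on tested genes after TMM scaling, and serves to compare libraries. Of the genes taken as marks of HEK293 cells, VIM, NEFL and LIN28B were expressed in every library while NEFM and PAX2 were at or near 0. ESR1 and TFF1, which define the breast cancer line MCF-7, were near 0, whereas KRT19 and GATA3 from the same list were expressed. Some of these marks were themselves called. On the log2 scale VIM fell in siGATAD2A (-0.64) and rose in siCARM1 (0.87), siCHD4 (0.81), siKDM1A (0.72) and siHDAC2 (0.40). LIN28B rose in 4 knockdowns, by 0.29 to 0.51, with -0.24 in siHDAC2 under the fold minimum. GATA3 was called lower in 4 knockdowns, at -0.43 to -0.51, with -0.16 in siGATAD2A. The part of these marks in the results below was not tested.

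The sequence before the start of the genes that passed the test in at least 1 knockdown is shown first, because these 4 genes, NCOA1, SMARCC1, MED12 and KMT2D, carry the changes described below. The window searched ran from 250 bases before the start of the canonical transcript to 50 bases after it on GRCh37, and 5 short motifs were looked for on both strands. For each gene, the 30 bases before the start with the most matched letters are printed on the gene's own strand, from the GRCh37 genome, and capitals mark motif letters. The stretches lie at chr2:24714051-24714080 (plus strand) for NCOA1, chr3:47823395-47823424 (minus strand) for SMARCC1, chrX:70338353-70338382 (plus strand) for MED12 and chr12:49454737-49454766 (minus strand) for KMT2D.
NCOA1: GGGCGGccgggaacGGGCGGGGCGGGGCGG
SMARCC1: cgcgCCGGAAGagggttggctGGGCGGggc
MED12: gggcacagagctCCGCCCccaccgggccag
KMT2D: gtttcgcggcctGGGCGGtaaatgaggcgg
All capitals are GC boxes (GGGCGG, or CCGCCC on the other strand), apart from the ETS motif CCGGAAG in SMARCC1. The 3 adjoining GC boxes of NCOA1 share letters with each other.

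The GC box was found in the windows of 8 of the 10 genes, beside 61.6% of the promoters of 19769 coding genes. NCOA1 had 10 matches in its window, where 85.7% of bases were G or C, CREBBP had 3, and SMARCC1, PABPC1 and KMT2D had 2 each. NCOA2, MED12 and CCAR1 each had 1, and the windows of NCOA3 and EP300 held none. The ETS motif was found in SMARCC1 and in 14.2% of all promoters. The E-box CACGTG was found in KMT2D and in 8.79% of all promoters. Neither the CCAAT box (CCAAT, 36% of all promoters) nor the TATA box (TATAAA, 9.6%) was found in any of the 10 windows. A match is a run of letters and not a site shown to be used.

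All 10 genes were well expressed. Counts per library ranged from 1130 for NCOA1 to 20293 for PABPC1, and the 10 genes lay between the 53.6th and the 97.5th percentile of tested genes by FPKM in siCTL. FPKM divides by the length of all annotated exons and serves to compare genes. On this scale PABPC1, which coats the poly(A) tails of mRNAs, had the highest level in siCTL at 77.4 ± 2.95 FPKM (SD, n = 2). SMARCC1 followed with 24.2 ± 0.134, KMT2D with 20.1 ± 0.330, CREBBP with 18.4 ± 0.733 and EP300 with 17.3 ± 0.463 FPKM. CCAR1 stood at 14.0 ± 0.732 and NCOA3 at 10.7 ± 0.337 FPKM, while NCOA2, MED12 and NCOA1 were close together at 7.43 ± 0.0219, 7.34 ± 0.256 and 7.23 ± 0.239 FPKM. These levels depend on the gene model. The annotated exons of PABPC1 add up to 9546 bases and its canonical transcript to 2861, and with the latter length it stood at 258 FPKM, still the highest. For MED12 the place in the order moved as well: its annotated exons add up to 17341 bases but its canonical transcript has 6925, and with the latter length MED12 stood at 18.4 FPKM and CREBBP, at 26.4, came before KMT2D, at 24.8. For PABPC1, 19.7% of the canonical transcript has a copy of at least 95% identity in 4 other genes, so that its counts, made from uniquely placed reads, may miss part of its RNA.

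**Figure D1:**
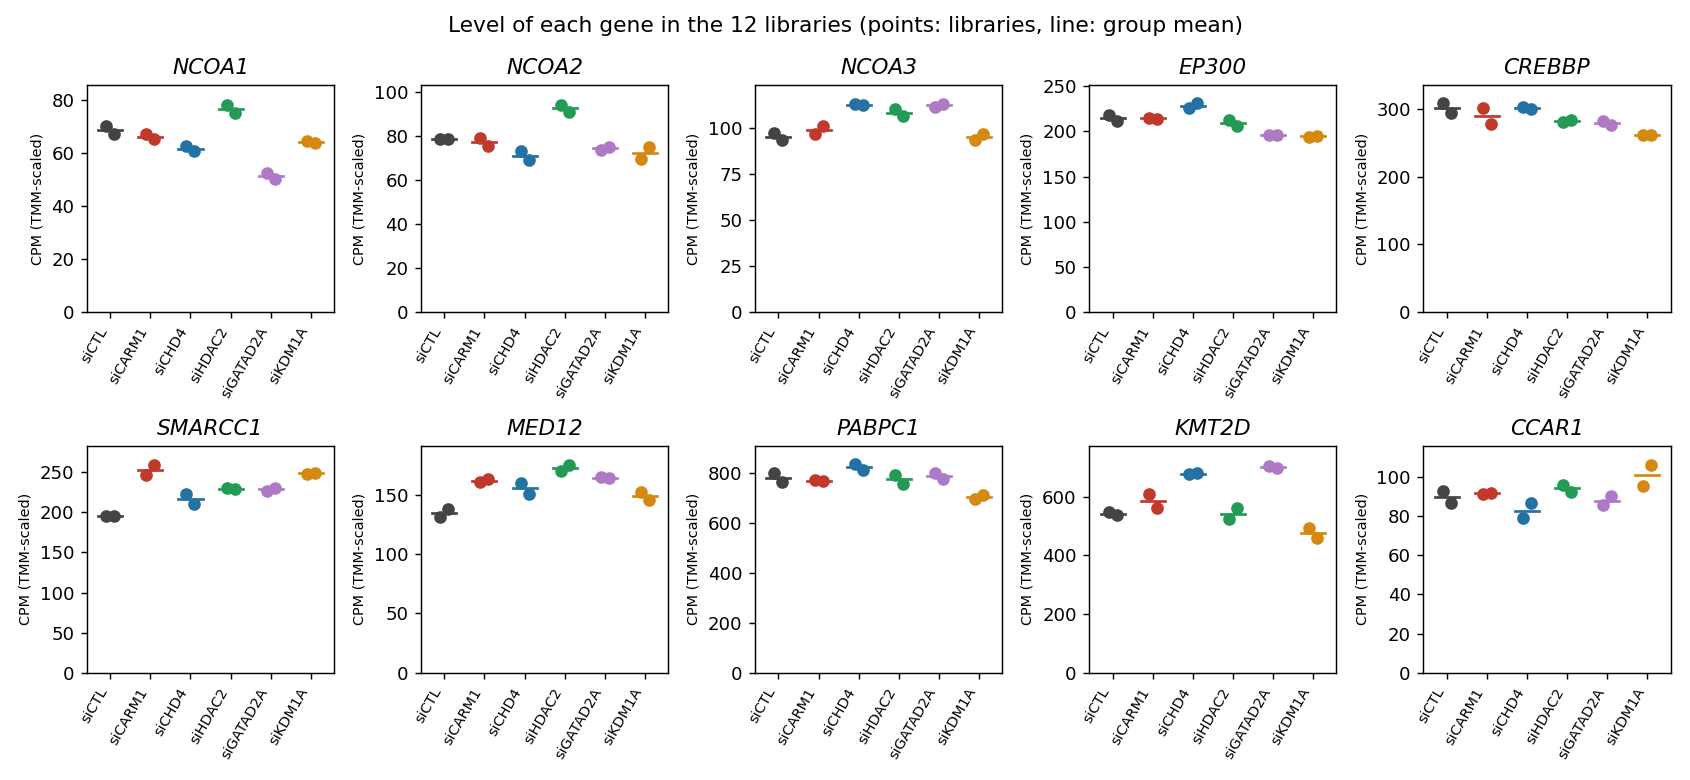
Level of the 10 genes in each of the 12 libraries, as CPM after TMM scaling on a linear axis from 0, with points for libraries and a line at the mean of each group. SMARCC1 was lowest in the 2 siCTL libraries (195 and 195 CPM), and NCOA1 was lowest in the 2 siGATAD2A libraries (52.6 and 50.0 CPM).

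Knockdown of CARM1 itself left the level of most of its partners close to siCTL. A gene was called when its adjusted p was 0.05 or less and its fold at least 1.2. By this rule 1 of the 10 genes was higher in siCARM1 and 0 were lower, whereas 14.9% of tested genes were called higher and 14.5% lower. By adjusted p alone, 3 of the 10 passed (SMARCC1, MED12 and KMT2D), beside 46.7% of tested genes. The median size of the log2 fold change was 0.05 over the 10 genes and 0.18 over all tested genes. All 10 lay above the middle of the tested genes by FPKM. Here and below, the tested genes were not matched to them in level. As these are bulk RNA samples, fewer cells of a kind and less RNA per cell cannot be told apart in any level given here.

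SMARCC1, a core subunit of the SWI/SNF remodelling complex, was the gene that rose in siCARM1. Its level was 246 and 259 CPM in the siCARM1 libraries and 195 and 195 CPM in siCTL. The siCARM1 libraries lay above both controls, with a log2 fold change of 0.37 (SE 0.042, 1.30-fold, edgeR adjusted p = 1.4e-08). SMARCC1 also rose in siKDM1A, where the libraries stood at 248 and 249 CPM (log2 fold change 0.35, SE 0.042, adjusted p = 5.3e-08). In the other knockdowns, its libraries stood at 223 and 211 CPM in siCHD4, at 230 and 229 in siHDAC2 and at 227 and 231 in siGATAD2A. All of these also lay above siCTL, with log2 fold changes of 0.16, 0.24 and 0.23 and adjusted p values of 0.0017, 5.8e-05 and 2.4e-05, but under the fold minimum. The 5 comparisons share the siCTL libraries, and how many tested genes lay above siCTL in all 5 was not computed. siCARM1 and siKDM1A overlapped, as did siGATAD2A and siHDAC2, and no other neighbours in the order of the 6 groups did.

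MED12, a subunit of the Mediator kinase module, rose in siHDAC2 and in siGATAD2A. The siCTL libraries had 131 and 138 CPM, the siHDAC2 libraries 170 and 175, and the siGATAD2A libraries 165 and 164. The log2 fold change was 0.35 in siHDAC2 (SE 0.047, adjusted p = 5.7e-07) and 0.29 in siGATAD2A (SE 0.047, adjusted p = 5.6e-06). The call in siGATAD2A was lost without siCTL replicate 1, where the value was 0.24, with a correction for exonic length (0.25), and when genes of every biotype were tested (0.26). In siCARM1, with 161 and 163 CPM, the log2 fold change was 0.26 (SE 0.047, adjusted p = 2.8e-05), just below the fold minimum. It passed that minimum without siCTL replicate 2 (0.30) and without siCARM1 replicate 1 (0.27). The siCHD4 libraries had 160 and 151 CPM and the siKDM1A libraries 152 and 146, with log2 fold changes of 0.21 and 0.14 and adjusted p values of 0.0003 and 0.014. As with SMARCC1, every knockdown library lay above both control libraries, which the comparisons share. The share of all tested genes with this pattern was not computed.

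KMT2D, which places methyl groups on H3K4 at enhancers, was called in 2 of the NuRD knockdowns and not in siCARM1. The siCTL libraries had 547 and 537 CPM, the siCHD4 libraries 677 and 680, and the siGATAD2A libraries 704 and 697. KMT2D rose in siCHD4 (log2 fold change 0.32, SE 0.042, adjusted p = 6.1e-08) and in siGATAD2A (0.37, SE 0.042, adjusted p = 9.9e-09), and these groups did not overlap with siCTL. In siKDM1A the libraries stood at 493 and 459 CPM, below both controls, with a log2 fold change of -0.19 (SE 0.042, adjusted p = 0.00062) that did not reach the fold minimum. The siHDAC2 libraries, at 523 and 560 CPM, lay on either side of the controls. siCARM1, at 609 and 560 CPM, had a log2 fold change of 0.11 (adjusted p = 0.031). From the lowest mean, in siKDM1A, to the highest, in siGATAD2A, KMT2D spanned 1.47-fold. Of its exons, 2.6% are shared with another annotated gene on the same strand, and reads there cannot be assigned to either.

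**Figure D2:**
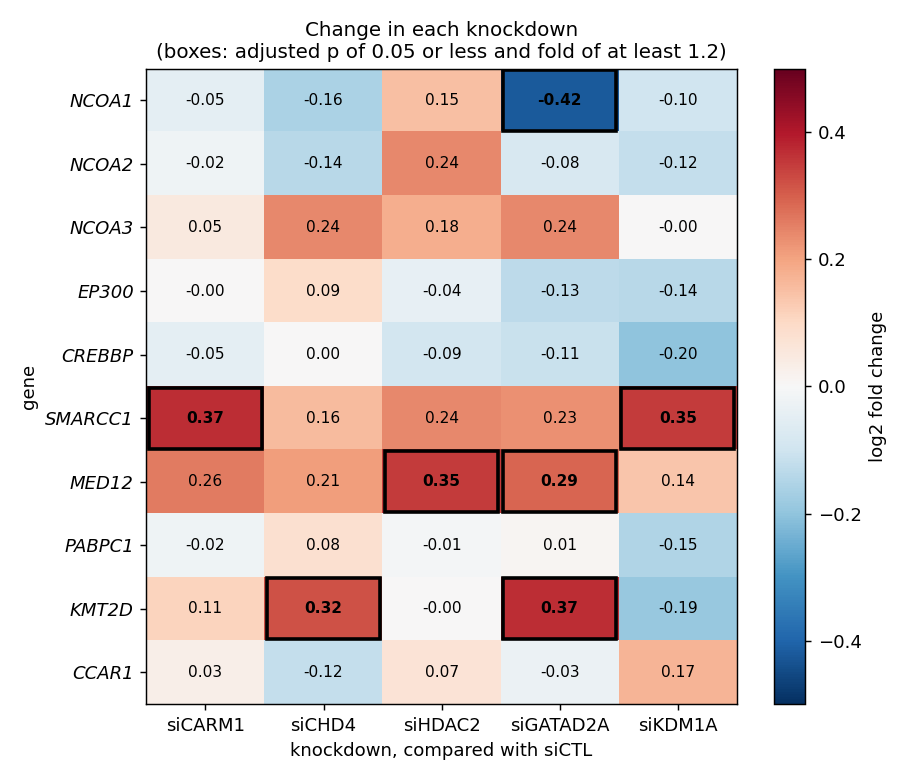
Log2 fold change of each gene (rows) in each knockdown against siCTL (columns), from the edgeR fit, with red for higher and blue for lower, and a box around the 7 values that passed both the adjusted p and the fold minimum. Of the 50 values, 6 were called higher and 1, NCOA1 in siGATAD2A at -0.42, was called lower.

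The p160 coactivators bind nuclear receptors directly, and NCOA1 was called in siGATAD2A while NCOA2 and NCOA3 were not called in any knockdown. In siHDAC2 the libraries of all 3 genes lay above both controls. In both siCHD4 and siGATAD2A, those of NCOA1 and NCOA2 lay below the controls and those of NCOA3 above. NCOA1 (SRC-1) had 70.2 and 67.3 CPM in siCTL and 52.6 and 50.0 CPM in siGATAD2A, and it fell by 0.42 on the log2 scale (SE 0.057, 1.34-fold, adjusted p = 2.5e-07). This was the only decrease called among the 50 values. In siHDAC2, in contrast, the NCOA1 libraries had 77.9 and 75.1 CPM, above both controls (log2 fold change 0.15, SE 0.055, adjusted p = 0.028). NCOA1 stood at 67.0 and 65.2 CPM in siCARM1, 62.6 and 60.6 in siCHD4 and 64.6 and 63.9 in siKDM1A, with log2 fold changes of -0.05, -0.16 and -0.10. Of these, the value in siCHD4 had an adjusted p of 0.015. No neighbouring groups in the order of NCOA1 levels overlapped.

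NCOA2 (TIF2, also GRIP1) had 78.6 and 78.7 CPM in siCTL and was highest in siHDAC2 at 94.5 and 91.2 CPM, with a log2 fold change of 0.24 (SE 0.054, adjusted p = 0.00093) that stayed under the fold minimum. Its libraries in the remaining groups lay between 69.1 CPM in siCHD4 and 79.4 CPM in siCARM1. The log2 fold change of NCOA2 in siCHD4 was -0.14 (adjusted p = 0.023), under the fold minimum. NCOA3 (AIB1), a coactivator amplified in breast cancer, had 97.0 and 93.2 CPM in siCTL, 113 and 112 CPM in siCHD4 and 111 and 113 CPM in siGATAD2A. These 2 knockdowns lay above siCTL without overlap, each with a log2 fold change of 0.24, and adjusted p values were 8.4e-05 and 0.00018. In siHDAC2 NCOA3 had 110 and 106 CPM (log2 fold change 0.18, adjusted p = 0.0042). It had 96.6 and 101 CPM in siCARM1 and 93.1 and 96.5 CPM in siKDM1A, which overlapped with siCTL.

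Summed over the 3 genes, the p160 level was 25.8 and 24.9 FPKM in siCTL and differed little in siCARM1 (25.4 and 25.3), siCHD4 (25.5 and 24.8) and siGATAD2A (24.9 and 25.0). It was above the controls in siHDAC2, at 29.3 and 28.2 FPKM, and in siKDM1A it was 23.7 and 24.6 FPKM. The sums and shares are given as a description, and no test of them was run. The make-up of the sum differed as well, and NCOA3 made up 42.1% ± 0.337 of it in siCTL (SD, n = 2), 48.9% ± 0.676 in siCHD4 and 50.3% ± 0.627 in siGATAD2A. The share of NCOA1 was 28.5% ± 0.269 in siCTL and 21.6% ± 0.851 in siGATAD2A. In siHDAC2, where the sum was highest, NCOA3 made up 41.9% ± 0.0613.

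**Figure D3:**
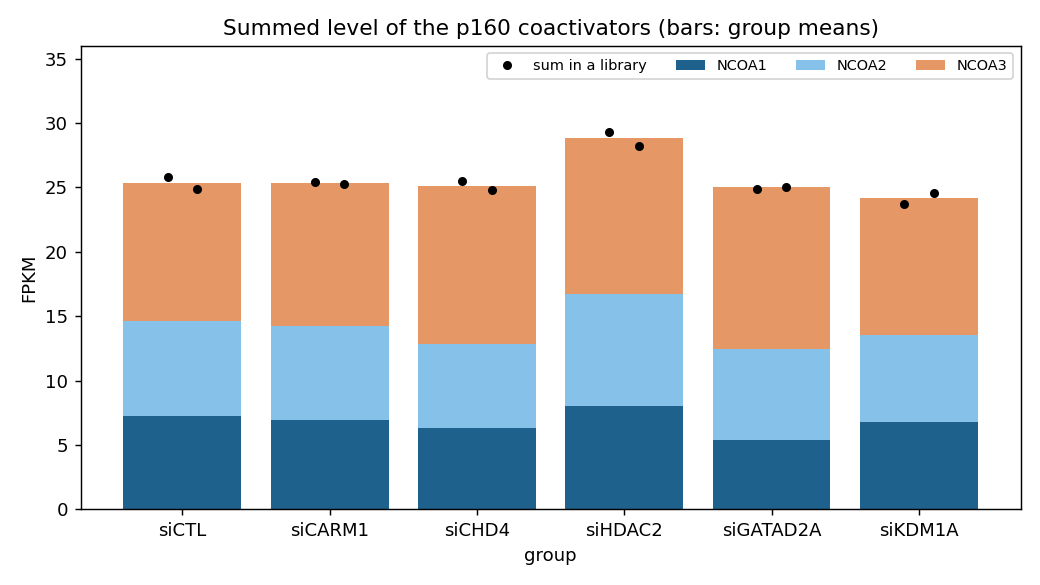
Summed level of NCOA1, NCOA2 and NCOA3 in FPKM, with stacked bars for the group means of each gene and a point for the sum in each library. siHDAC2 stood above the other groups with 29.3 and 28.2 FPKM. In siCHD4 and siGATAD2A the bar for NCOA1 was smaller and that for NCOA3 larger at nearly the same sum as siCTL.

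The acetyltransferases p300 and CBP, which act on histones next to CARM1, stayed within narrow limits. EP300 had 218 and 211 CPM in siCTL and 215 and 214 CPM in siCARM1. The log2 fold change in siCARM1 was -0.00, with a 95% interval of -0.08 to 0.08. EP300 was below siCTL in siGATAD2A (196 and 196 CPM, log2 fold change -0.13, adjusted p = 0.0085) and in siKDM1A (194 and 195 CPM, -0.14, adjusted p = 0.007), in both cases under the fold minimum. It had 226 and 231 CPM in siCHD4 and 213 and 206 in siHDAC2.

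CREBBP had 309 and 294 CPM in siCTL and 302 and 278 CPM in siCARM1 (log2 fold change -0.05, 95% interval -0.14 to 0.03). Its lowest level was in siKDM1A, with 262 CPM in both libraries and a log2 fold change of -0.20 (SE 0.042, adjusted p = 0.00027). It stood at 303 and 301 CPM in siCHD4, 282 and 285 in siHDAC2 and 283 and 277 in siGATAD2A. The highest group mean was 1.17 times the lowest for EP300 and 1.15 times for CREBBP, and the ratio of EP300 to CREBBP FPKM lay between 0.919 and 1.02 in all 12 libraries.

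PABPC1 and CCAR1 were not called in any knockdown either. PABPC1 had 802 and 763 CPM in siCTL, 772 and 767 in siCARM1 and 696 and 712 in siKDM1A. siKDM1A lay below all other groups, with a log2 fold change of -0.15 (SE 0.037, adjusted p = 0.0012). The siCHD4 libraries had 836 and 814 CPM, the siHDAC2 libraries 794 and 756, and the siGATAD2A libraries 801 and 775, with adjusted p values of 0.065, 0.8 and 0.84. CCAR1 had 92.9 and 86.7 CPM in siCTL and 91.2 and 91.9 in siCARM1. Its highest level was in siKDM1A, at 95.6 and 106 CPM, with a log2 fold change of 0.17 (SE 0.058, adjusted p = 0.019), and its lowest in siCHD4, at 78.9 and 86.6 CPM (-0.12, adjusted p = 0.083). In siHDAC2 and siGATAD2A it had 95.9 and 92.3, and 85.4 and 90.4 CPM.

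The calls among the 10 genes were counted for each NuRD knockdown beside those over all tested genes. In siCHD4, 0 were lower and 1 was higher, beside 24.9% and 24.0% of tested genes. By adjusted p alone 6 of the 10 passed in siCHD4, beside 65.7%. In siHDAC2, 0 were lower and 1 was higher (9.00% and 10.6% of tested genes), and 5 passed by adjusted p alone (35.4%). In siGATAD2A, which held the most calls, 1 was lower and 2 were higher (18.2% and 15.7%), and 7 passed by adjusted p alone (51.5%). In siKDM1A, 0 were lower and 1 was higher (11.5% and 14.2%), and 7 passed by adjusted p alone (42.3%). The median size of the log2 fold change over the 10 genes was 0.15 in siCHD4 (0.28 over all tested genes), 0.12 in siHDAC2 (0.14), 0.18 in siGATAD2A (0.20) and 0.15 in siKDM1A (0.16).

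To ask where the knockdown of CARM1 differed from those of NuRD subunits, siCARM1 was compared with each of them in the same fit, without reference to siCTL. Against siCHD4 and against siHDAC2, 0 of the 10 genes were called, beside 47.7% and 19.3% of tested genes. At an adjusted p of 0.05 or less with no fold minimum, these counts were 6 and 5. The share of all tested genes at that rule was not computed for these comparisons. Against siGATAD2A 1 gene was called, NCOA1, which was higher in siCARM1 by 0.37 on the log2 scale (SE 0.056, adjusted p = 2.2e-06, 33.8% of tested genes called). Against siKDM1A 1 gene was called, KMT2D, which was higher in siCARM1 by 0.30 (SE 0.042, adjusted p = 1.3e-06, 21.0% of tested genes called). That call was lost without siCARM1 replicate 1 (0.23), without siKDM1A replicate 2 (0.25) and with a correction for exonic length (0.21).

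Other differences between siCARM1 and NuRD knockdowns stayed under the fold minimum, and some of them passed it when 1 library was left out. KMT2D was lower in siCARM1 than in siGATAD2A (-0.26, adjusted p = 4.5e-06) and than in siCHD4 (-0.21, adjusted p = 4.6e-05), and without siCARM1 replicate 1 these values passed it at -0.32 and -0.28. The difference from siGATAD2A also passed without siGATAD2A replicate 2, at -0.27. NCOA2 differed from siHDAC2 by -0.26 (adjusted p = 0.00035), and by -0.29 without siCARM1 replicate 1 and -0.28 without siHDAC2 replicate 2. SMARCC1 in siCARM1 was above siCHD4 by 0.22 (adjusted p = 3.8e-05), a value of 0.26 without siCHD4 replicate 1, which passed. For SMARCC1 the difference from siKDM1A was 0.02, with a 95% interval of -0.06 to 0.11. For MED12 the interval ran from -0.12 to 0.07 against siGATAD2A and from -0.18 to 0.00 against siHDAC2.

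**Figure D4:**
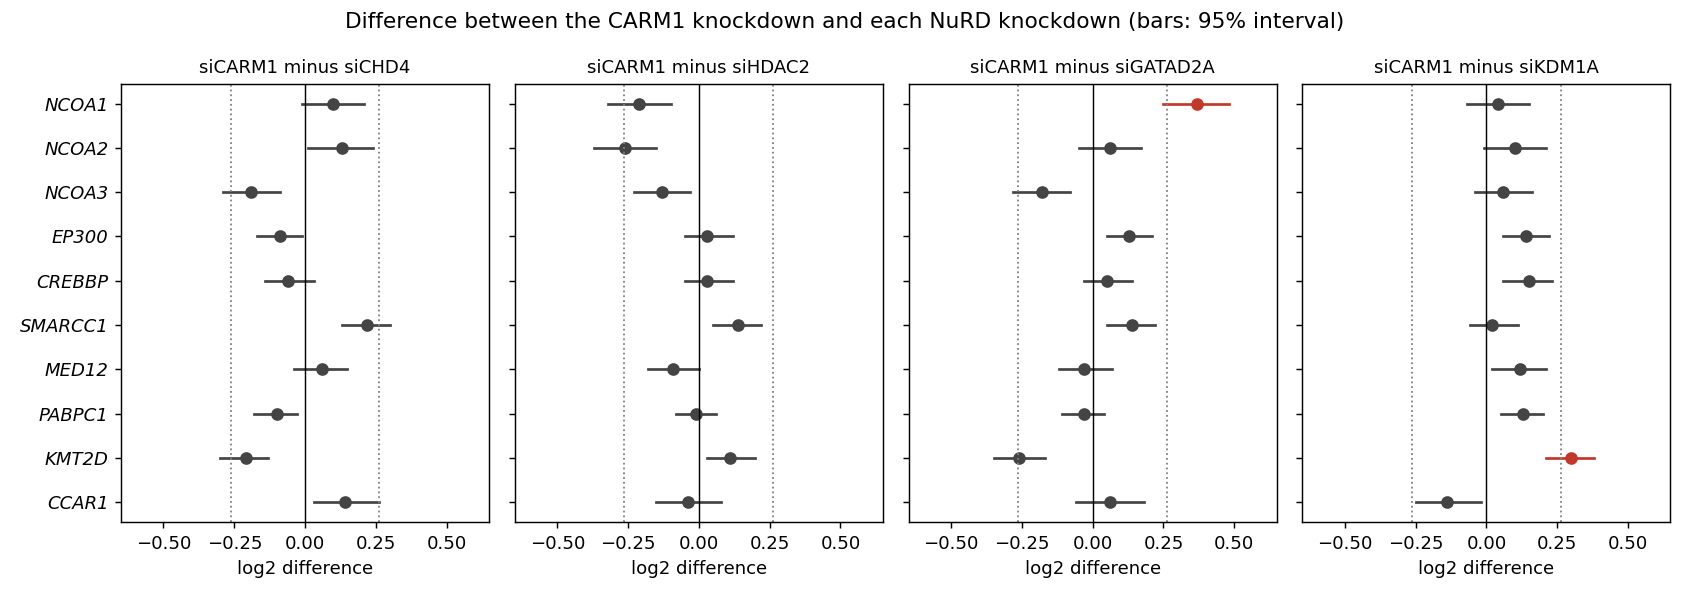
Log2 difference of each gene between siCARM1 and each NuRD knockdown, with the 95% interval as a bar, dotted lines at a fold of 1.2 and red for the called values. NCOA1 against siGATAD2A (0.37) and KMT2D against siKDM1A (0.30) were called, and for the other genes the values lay within or on the dotted lines.

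The wider families of these proteins were then examined, from lists of genes written from general knowledge, with earlier results of these data known. All counts in siCARM1 stand beside 14.5% of tested genes called lower and 14.9% called higher. Besides close relatives and targets, listed genes are named because they were called the same way in at least 4 knockdowns. These share the siCTL libraries, and how many tested genes passed that rule was not computed. Among the 14 other CARM1 substrates tested, 2 were lower and 1 was higher in siCARM1, with a median log2 fold change of -0.09 beside 0.01 for all tested genes. SOX9, a transcription factor on this list, rose in 4 of the 5 knockdowns, with log2 fold changes of 0.63 in siCARM1 (SE 0.084, adjusted p = 3.3e-07), 0.88 in siCHD4, 0.88 in siGATAD2A and 0.44 in siKDM1A. In siHDAC2 its value was 0.18 (adjusted p = 0.1). In siGATAD2A, 2 of these substrates were lower (18.2% of all tested genes) and 4 higher (15.7%), and 1 of the 2 was GATAD2A itself, the target of the siRNA. Among the 10 other nuclear receptor coactivators, 1 was lower and 1 higher in siCARM1 (median 0.06). CCAR2, the relative of CCAR1, was not called in any knockdown, and its log2 fold changes lay between -0.14 and 0.09.

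Of the 32 other Mediator subunits tested, 2 were lower and 4 higher in siCARM1 (median -0.01), and 3 were lower and 8 higher in siCHD4 (median 0.05), where 24.9% and 24.0% of all tested genes were called. MED11, a head subunit of Mediator, rose in siCARM1 (0.52, SE 0.143, adjusted p = 0.0036), siCHD4 (0.73), siHDAC2 (0.74) and siKDM1A (0.42). Its value in siGATAD2A was 0.24 (adjusted p = 0.18), and its level in siCTL was low, at 5.87 CPM. MED13, which ties the kinase module to core Mediator, rose in siCHD4 (0.39, adjusted p = 3.6e-10) and siGATAD2A (0.27, adjusted p = 7e-07). Its value in siCARM1, 0.26, was like that of MED12 just under the fold minimum (adjusted p = 2.4e-06). MED12L, the paralog of MED12, rose in siCHD4 (0.42, adjusted p = 2.3e-06) and siGATAD2A (0.30, adjusted p = 0.00042), and in siCARM1 its value was 0.09 (adjusted p = 0.31).

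KMT2C, the paralog of KMT2D, rose in siCHD4 (0.43, SE 0.044, adjusted p = 5.5e-10), as did KMT2D, and in siHDAC2 (0.40, adjusted p = 2.2e-08), where the value of KMT2D was -0.00. In siGATAD2A, where KMT2D rose, KMT2C had a log2 fold change of 0.04 (adjusted p = 0.51). Of the 9 KMT2C and KMT2D complex partners tested, a list that includes KMT2C, 1 was lower and 0 higher in siCARM1 (median 0.09). Of the 9 other lysine acetyltransferases, 1 was lower and 0 higher in siCARM1 (median -0.10), and 4 were lower and 1 higher in siCHD4 (median -0.08, beside 24.9% lower and 24.0% higher over all tested genes). KAT5 (TIP60) fell in siCARM1 by 0.45 (SE 0.058, adjusted p = 1.8e-07), and its log2 fold changes in siCHD4, siHDAC2 and siKDM1A, all called lower, were -0.28, -0.30 and -0.47. Its value in siGATAD2A was -0.21 (adjusted p = 0.0032), under the fold minimum.

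Of the 15 other SWI/SNF subunits, 1 was lower and 0 higher in siCARM1 (median -0.03). SMARCC2, the paralog of SMARCC1, rose in siHDAC2 (0.27, SE 0.052, adjusted p = 0.00015), and in siCARM1 and siKDM1A, where SMARCC1 rose, it had values of 0.14 (adjusted p = 0.026) and 0.10 (adjusted p = 0.13). Of the 9 tested of 11 poly(A)-binding proteins and partners, 2 were lower and 1 higher in siCARM1 (median 0.03). PABPC4, the relative of PABPC1, rose in siCHD4 (0.27, SE 0.038, adjusted p = 3.4e-07) and had values of 0.15 in siCARM1 and 0.17 in siKDM1A under the fold minimum.

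**Figure D5:**
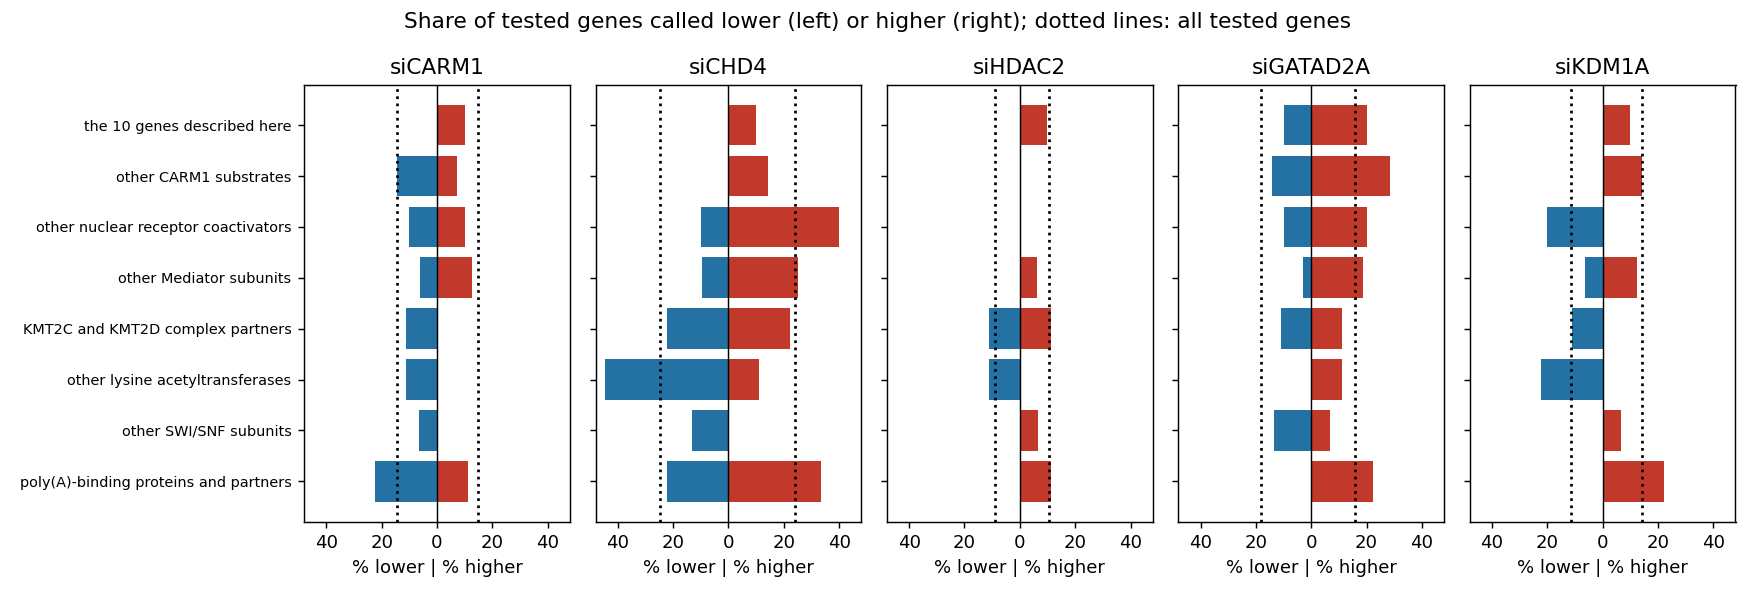
Percent of the tested genes of each list called lower (blue, to the left) or higher (red, to the right) in each knockdown against siCTL, with dotted lines at the percent over all 12830 tested genes. In siCARM1, none of the lists passed the dotted line on the higher side, and the 9 poly(A)-binding proteins and partners passed it on the lower side with 2 genes.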

How the data were processed

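For each library, the authors deposited unnormalized counts of pairs on each Ensembl gene, in the layout of STAR's gene counts, with columns for both strands together and for each strand. The submitters' processing notes name STAR 2.7.10, CASAVA 1.4 and hg19, and the annotation release is not given in the sources used here. STAR counts only uniquely placed pairs. The methods of the study name TopHat, HOMER and DESeq2 for its own figures. Libraries were made with a directional kit, and the reverse-strand counts were used. Of 60660 identifiers, 58662 (96.7%) matched GENCODE release 44 mapped to GRCh37, which gave symbols, exon lengths and coordinates. Identifiers without a match held 1.75% to 2.61% of counts and were not tested. The labels name a pair of sequencing providers without saying which library went to which. No column of the files was left without a sample.

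Coding genes with FPKM over 0.5 in the mean of at least 1 group were tested (12830). CPM and FPKM were computed here from the counts. edgeR 4.0.16 (R 4.3.3) fitted 6 group means to all 12 libraries by its quasi-likelihood test with TMM factors (0.968 to 1.01). p-values were adjusted by Benjamini-Hochberg over all tested genes of a comparison. The common biological coefficient of variation was 3.47%, and replicate libraries differed by more than counting noise (chi-square per degree of freedom 1.77 to 4.99). The fit was tested on simulated data. Copies of the transcripts were searched with BLAST 2.17.0. Motifs were counted in windows of 300 bases of 19769 coding genes. The opposite-strand values given at the end are counts of the forward-strand column. Intervals are from the edgeR fit.

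The members and gene lists were chosen with earlier results of these data known. Named are all 10 genes, the 5 targeted genes, the genes of the lists called the same way in at least 4 knockdowns, and the closest relatives SMARCC2, CCAR2, PABPC4, KMT2C, MED13 and MED12L. Genes of like pattern were to be named for members called in at least 3 knockdowns, and no member was. Alternatives were RLE size factors, DESeq2 1.42.0, other filters on low genes, other fold minimums, a replicate block, unstranded counts, separate fits of each pair of groups, corrections for GC content and exonic length, thinned libraries, and each library left out in turn.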

Additional observations from a re-analysis of the deposited data

How the results depend on the processing

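Over the alternatives other than the fold minimums, which were run for counts alone, each gene gave a value in each comparison and setting. Of these values, 2050 kept their side of the thresholds, 14 passed the thresholds only under an alternative, and 6 fell short of them only under an alternative. Among values called in the main fit or the alternative, 0 reversed. A change of sign in a value called in neither was not counted. With no fold minimum, counts were 3 higher in siCARM1 (3030 of the 12830 tested genes), and 2 lower and 4 higher in siCHD4 (4174 and 4256). In siHDAC2, 5 were higher (2283 of the tested genes). In siGATAD2A 3 were lower and 4 higher (3335 and 3272), and in siKDM1A 4 were lower and 3 higher (2618 and 2814). At the same rule 6, 5, 5 and 5 genes differed between siCARM1 and siCHD4, siHDAC2, siGATAD2A and siKDM1A. For these last comparisons the number over all tested genes was not computed. At a fold of at least 1.5 all counts among the 10 genes were 0. Over the tested genes, 499 were lower and 565 higher at that fold in siCARM1, and 1411 and 1344 in siCHD4. The numbers were 256 and 380 in siHDAC2, 919 and 615 in siGATAD2A, and 380 and 659 in siKDM1A. For comparisons between knockdowns, numbers over all tested genes were not computed at the alternatives in this paragraph. Genes higher in siCARM1 were 2 with FPKM over 1 and 2 with a GC content correction, which added MED12. Over all genes tested in these settings, 1819 and 1864 were higher. Genes higher in siGATAD2A were 1 with filterByExpr on every biotype and 1 with an exonic length correction, which lost MED12. All genes tested in these settings held 2559 and 2024 that were higher. With a GC content correction 1 gene differed between siCARM1 and siCHD4 (NCOA3, -0.27) and 1 between siCARM1 and siHDAC2 (NCOA2, -0.28). With an exonic length correction, the genes that differed from siCARM1 were 1 in siCHD4, 2 in siGATAD2A and 0 in siKDM1A, and all of these changes were in KMT2D. With each library left out in turn, counts ranged from 1 to 2 for genes higher in siCARM1, from 1 to 2 for genes higher in siGATAD2A, from 0 to 1 for differences from siCHD4, from 0 to 1 from siHDAC2, from 1 to 2 from siGATAD2A and from 0 to 1 from siKDM1A, and stayed as reported for the others. A group left with 1 library was assumed to vary like the others. The causes were not tested.

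The labels number the libraries 1 and 2 in each group, but the numbers share no named batch. Deviations of same-numbered libraries correlated with r from -0.12 to 0.14 over 15 pairs of groups, and 1 was over 0.1. With the number as a replicate block, 1 gene was higher in siCARM1 and 2 in siGATAD2A, and no call among the 10 genes changed. DESeq2, RLE size factors, unstranded counts, thinned libraries, coding genes with at least 1 count and separate fits of each pair of groups changed no call either. A log2 fold change near the fold minimum is within the error of about 0.04 to 0.06 of these fits and its call may go either way at 2 libraries per group.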

Other observations

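Read pairs on the strand opposite to a gene were few for 9 of the 10 genes, at most 1.34% of the pairs on both strands in any library (CREBBP). For NCOA3, whose exons overlap those of SULF2 on the other strand over 2.93% of their length, the share was higher. It was 2.37% and 3.01% in siCTL, 3.32% and 3.69% in siCARM1, 3.51% and 2.77% in siCHD4, 2.87% and 2.73% in siHDAC2, 2.23% and 2.07% in siGATAD2A, and 4.27% and 3.92% in siKDM1A. These shares rest on 43 (siCTL replicate 1) to 94 (siKDM1A replicate 2) read pairs per library. An edgeR fit of the opposite-strand counts called no knockdown for NCOA3, with log2 fold changes of 0.60 in siKDM1A (adjusted p = 0.17) and -0.09 in siGATAD2A (adjusted p = 0.94).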
